A study of Mus musculus with 15 samples.

Results

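The protein genes of the cytosolic ribosome were followed across fibroblasts, an embryonic stem (ES) cell line and 3 induced pluripotent stem (iPS) cell lines of the mouse. A gene was taken where at least 1 probe set named it alone and its symbol began with Rpl or Rps and a digit, or was Rpsa or Rplp0 to Rplp2. S6 kinase genes, Rps19 binding protein genes and pseudogenes were left out, and each gene was read from its brightest probe set by mean over all arrays. This gave 48 of the 18193 genes measured, namely 20 genes of the large subunit, 21 of the small subunit, 2 of the ribosomal stalk and 5 diverged paralogs. RefSeq lists 88 protein-coding genes by the same rule. Of these, 31 were named only beside other genes and 9 by no probe set used here, so 40 genes were not analysed here.

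RNA had been measured on 15 Affymetrix arrays, 3 for each of 5 groups. The mouse embryonic fibroblasts (MEF), the ES line CL11 and the iPS lines IP14D-1 and IP20D-3 were of the B6D2F1 background, and the iPS line IP14D-101 was of the C57x129S2 background. Line and background therefore cannot be told apart for IP14D-101, whose background also differed from that of the MEF arrays. Each iPS group was a single line, and CL11 was the only ES line. All ES and iPS cultures stood on a layer of mitomycin C-arrested fibroblasts with LIF and either serum or a serum replacement, and the medium of each line was not stated. Per the design text the arrays of one group are biological replicates, without saying whether cultures were separate, so p-values measure only the spread between these samples. Fewer cells of a kind and less RNA per cell cannot be told apart in such samples.

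All 14 pluripotency markers were above background in each of the 4 lines and 1 of 14 in MEF. Background was a log2 signal of 11.05, which 95% of the single-array values of 38 olfactory receptor genes did not pass. The 14 fibroblast markers summed to a signal of 6146920 to 6844160 on the MEF arrays and 183024 to 317152 on the others. All 14 were above background in MEF, 9 in IP14D-1, 4 in IP14D-101 and IP20D-3 and 3 in CL11. The mean of 10 endoderm markers was above background for 8 in CL11 and IP14D-101, 5 in IP14D-1 and 4 in IP20D-3 and MEF. The 9 macrophage markers were all above background in MEF and 2 or 3 of them in each line. The 3' to 5' signal ratio of actin averaged 1.16 in MEF and from 1.21 to 1.37 in the lines. The part of these markers and of this ratio in the results was not tested.

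Each ribosome carries a set of proteins around its ribosomal RNA, and nearly all of them are needed in equal numbers. Their genes are among the most strongly transcribed of any growing cell. Most of their messages begin with an unbroken run of pyrimidines at the cap, the TOP motif, through which mTOR and Larp1 set how many of them are translated. Fast dividing pluripotent cells are known for active nucleoli and high ribosome production. A few members have paralogs that replace them in some tissues, such as Rpl3l in muscle and Rpl39l in male germ cells.

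RefSeq start sites on GRCm38.p6 were found for 43 of the 48 genes, at 51 starts. Windows of 30 bases are shown for the genes the results turn on, and for 4 bright genes that show how far the pyrimidine run differed among them: Rpl13a and Rpl35 with long runs, Rpl41 and Rps3 with short ones. Base 16 of each window is the annotated start, and capitals mark the longest run of C and T. Where a gene had several starts, the one with the longest run was printed. Among the genes shown this applies to Rps27l, which had 2 starts, the other with a run of 4.
Rpl12, chr2:32961697-32961726, plus strand: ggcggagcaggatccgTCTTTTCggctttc
Rpl14, chr9:120571502-120571531, plus strand: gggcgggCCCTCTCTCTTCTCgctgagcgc
Rpl22l1, chr3:28805493-28805522, plus strand: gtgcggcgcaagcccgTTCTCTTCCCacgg
Rpl39, chrX:37085208-37085237, minus strand: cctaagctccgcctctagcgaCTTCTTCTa
Rpl39l, chr16:10170213-10170242, plus strand: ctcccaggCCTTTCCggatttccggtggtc
Rpl7l1, chr17:46782642-46782671, minus strand: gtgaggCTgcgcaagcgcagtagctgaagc
Rps25, chr9:44407699-44407728, plus strand: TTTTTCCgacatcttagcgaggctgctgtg
Rps27l, chr9:66946071-66946100, plus strand: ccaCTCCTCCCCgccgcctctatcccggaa
Rpl13a, chr7:45128731-45128760, minus strand: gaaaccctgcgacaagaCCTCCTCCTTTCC
Rpl35, chr2:39005117-39005146, minus strand: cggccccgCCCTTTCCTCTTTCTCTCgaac
Rpl41, chr10:128549154-128549183, minus strand: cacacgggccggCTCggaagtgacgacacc
Rps3, chr7:99483695-99483724, minus strand: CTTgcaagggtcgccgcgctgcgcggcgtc

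A run of at least 8 pyrimidines lay in 19 of the 51 windows (37.25%) and in 12% of the windows at 32851 starts of all genes, with a median longest run of 6 bases against 4. Rpl35 had the longest of the runs printed, at 18 bases, and Rpl14 had 14. Rpl12, Rpl39l and Rps25 had 7 bases each, Rpl41 and Rps3 had 3, and Rpl7l1, a nucleolar relative of Rpl7, had 2. A run could lie anywhere in its window, so it is not by itself a TOP motif. Those of Rpl39l and Rps25 ended before the annotated start, and that of Rpl12 began after it. In the 300 bases from 250 before to 50 after each start, the letters CCGGAAG, the core bound by ETS factors such as Gabpa, stood on either strand at 41.18% of member starts and 8.858% of all starts. The letters ATGGCGG, which hold the core bound by Yy1, stood on either strand at 13.73% against 4.055%, and TATAAA on the sense strand at 9.804% against 8.319%. A match is a description of the letters in these windows.

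The ribosomal protein genes held between 5.25% and 7.01% of the summed gene signal of an array. MEF arrays gave the lowest shares, at 5.34% ± 0.084 (SD, n = 3). CL11 gave 5.81% ± 0.198, IP14D-1 5.90% ± 0.194 and IP14D-101 6.01% ± 0.238 (SD, n = 3 each), and these 3 groups overlapped each other. IP20D-3 gave 6.67% ± 0.331 (SD, n = 3), and its lowest array, at 6.35%, lay above the highest array of any other group, at 6.15%. A share within an array does not depend on how arrays are scaled, but it moves with every other gene's signal. Of the 48 genes, 36 had a mean log2 signal of at least 18, the lowest of them Rpl22l1 at 18.78, and all of these ranked among the 119 brightest genes (0.654%). They are called the bright genes below. The other 12 had means of at most 17.10, and signals of different probe sets are not comparable as amounts of RNA.

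**Figure D1:**
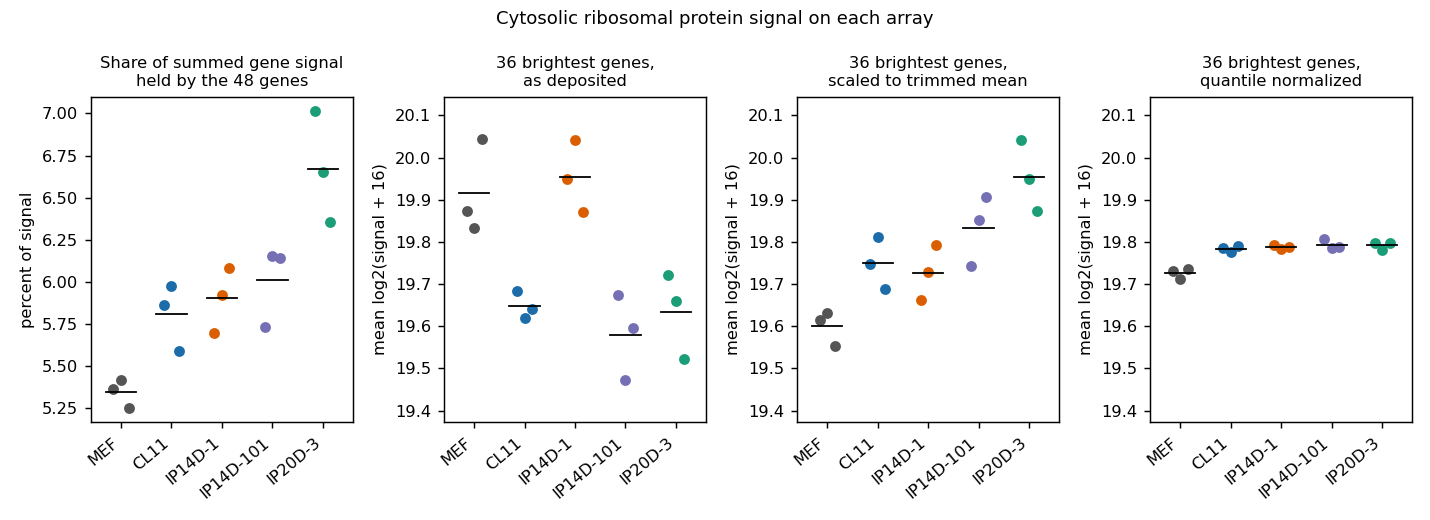
Points are arrays and bars are group means (n = 3). The left panel gives the percent of summed gene signal held by the 48 ribosomal protein genes, and the other panels give the mean log2(signal + 16) of the 36 bright genes as deposited, scaled to the trimmed mean and quantile normalized. MEF has the lowest share (5.34%) and IP20D-3 the highest (6.67%), while the order of the group means in the other panels depends on the scaling: MEF is lowest after scaling (19.60) and after quantile normalization (19.73) but above CL11, IP14D-101 and IP20D-3 as deposited (19.92).

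The deposited arrays differed in overall brightness, with 2% trimmed means from 11141.8 to 20355.5, and were scaled to a common trimmed mean. After this the bright genes averaged a log2 signal of 19.60 in MEF, 19.95 in IP20D-3, 19.83 in IP14D-101, 19.75 in CL11 and 19.73 in IP14D-1. As deposited, the same means were 19.92, 19.63, 19.58, 19.65 and 19.95, so the direction against MEF turned for every line but IP14D-1. Under quantile normalization they were 19.73, 19.79, 19.79, 19.78 and 19.79. The sign of the bright genes' change against MEF therefore depended on the scaling. Its size is a value of probe sets near the top of the range: the highest signal of an array was 1.34 to 1.51 times the median signal of the bright genes on it. Whether these probe sets were saturated was not tested, and dimmer probe sets of the same genes, given below, had other values. The median over all genes also moved with the scaling, from 0.06 to -0.35 in CL11, from 0.05 to -0.51 in IP14D-101 and from 0.10 to -0.52 in IP20D-3, on the log2 scale, as deposited in place of scaled.

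Against MEF, the model fitted with limma to all genes called 20 of the 48 genes higher and 4 lower in CL11 at an adjusted p under 0.05 (Benjamini-Hochberg over 18193 genes), where 30.3% and 24% of all genes were called (54.3% in either direction). Their median log2 change was 0.19, beside 0.06 over all genes, and as deposited 3 were higher and 20 lower with a median of -0.23, beside 20.5% and 31.9% of all genes. Without CL11 replicate 2 or without MEF replicate 3 the count of called genes fell from 24 to 13. IP14D-1 had 11 genes higher and 1 lower, beside 30% and 23% of all genes (53% in either direction), with a median of 0.14 and 0.13 over all genes. As deposited, 3 were higher and 1 lower in IP14D-1, beside 26.3% and 23.4%. IP14D-101 had 31 higher and 4 lower, beside 30.4% and 24.9% (55.4% in either direction), with a median of 0.24 and 0.05 over all genes, and as deposited 2 were higher and 30 lower, beside 18.2% and 36.4%. Quantile normalization called 14 higher and 6 lower in IP14D-101, beside 32.9% and 22.4%. IP20D-3 had 37 higher and 1 lower, beside 30.5% and 23.9% (54.4% in either direction), with a median of 0.37 and 0.10 over all genes. As deposited, 2 were higher and 21 lower in IP20D-3, beside 17.2% and 37%. Under quantile normalization 16 were higher and 4 lower there, beside 31.1% and 23.5%. With arrays scaled to the bright genes themselves, 7 were higher and 7 lower in CL11, beside 26.5% and 26.5% of all genes. That scaling gave 8 and 10 in IP14D-101, beside 25.1% and 29%, and 9 and 6 in IP20D-3, beside 22.8% and 30.6%. The scaled counts of higher genes in CL11, IP20D-3 and IP14D-101 each include Rpl3l, which was above background on 2 of the 15 arrays, and over the 46 genes above background they were 19, 36 and 30.

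By role, the large subunit had 10 of 20 genes higher and 1 lower in CL11, 6 and 0 in IP14D-1, 13 and 3 in IP14D-101, and 16 and 0 in IP20D-3 after scaling. The small subunit had 6 of 21 higher and 1 lower in CL11, 4 and 0 in IP14D-1, 13 and 0 in IP14D-101, and 17 and 0 in IP20D-3. The median log2 change of the large and the small subunit was 0.21 and 0.17 in CL11 and 0.38 and 0.35 in IP20D-3 after scaling, and most calls in both lines turned as deposited. Both stalk genes, Rplp0 and Rplp2, which anchor and form the arm that recruits elongation factors, were called higher in CL11, IP14D-101 and IP20D-3 after scaling, and both lay below MEF there as deposited. Rplp0 gave 20.40, 20.34 and 20.21 in IP20D-3 and 19.80, 19.74 and 19.63 in MEF, a log2 change of 0.60 ± 0.08 (SE, adjusted p = 3.93e-06), and -0.04 as deposited. Rpl11, which binds Mdm2 when ribosome assembly fails, rose by 0.20 in IP20D-3 after scaling (adjusted p = 0.0226), and Rps19, mutated in Diamond-Blackfan anaemia, by 0.22 (adjusted p = 0.0182). Rpl38, known for its part in Hox translation, rose by 0.37 there (adjusted p = 5.15e-04). As deposited all 3 were called lower, at -0.44, -0.42 and -0.27. Counted over the 4 lines, 9 genes were higher than MEF in all of them after scaling: Rpl12, Rpl27, Rpl4, Rpl6, Rpl7a, Rpl7l1, Rpl8, Rps4x and Rps9. Another 5 were lower in at least 1 line and higher in none, namely Rpl22l1, Rpl37, Rpl39, Rpl39l and Rps20. Rpl14 was called both ways. The shares of all genes with these patterns were not taken, so the counts cannot be set against them. In a single line 30% to 30.5% of all genes were higher and 23% to 24.9% lower. The calls of Rpl12 held in all 4 lines, and those of Rpl7l1 in CL11, IP14D-1 and IP14D-101, under each of the 5 scalings tried.

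**Figure D2:**
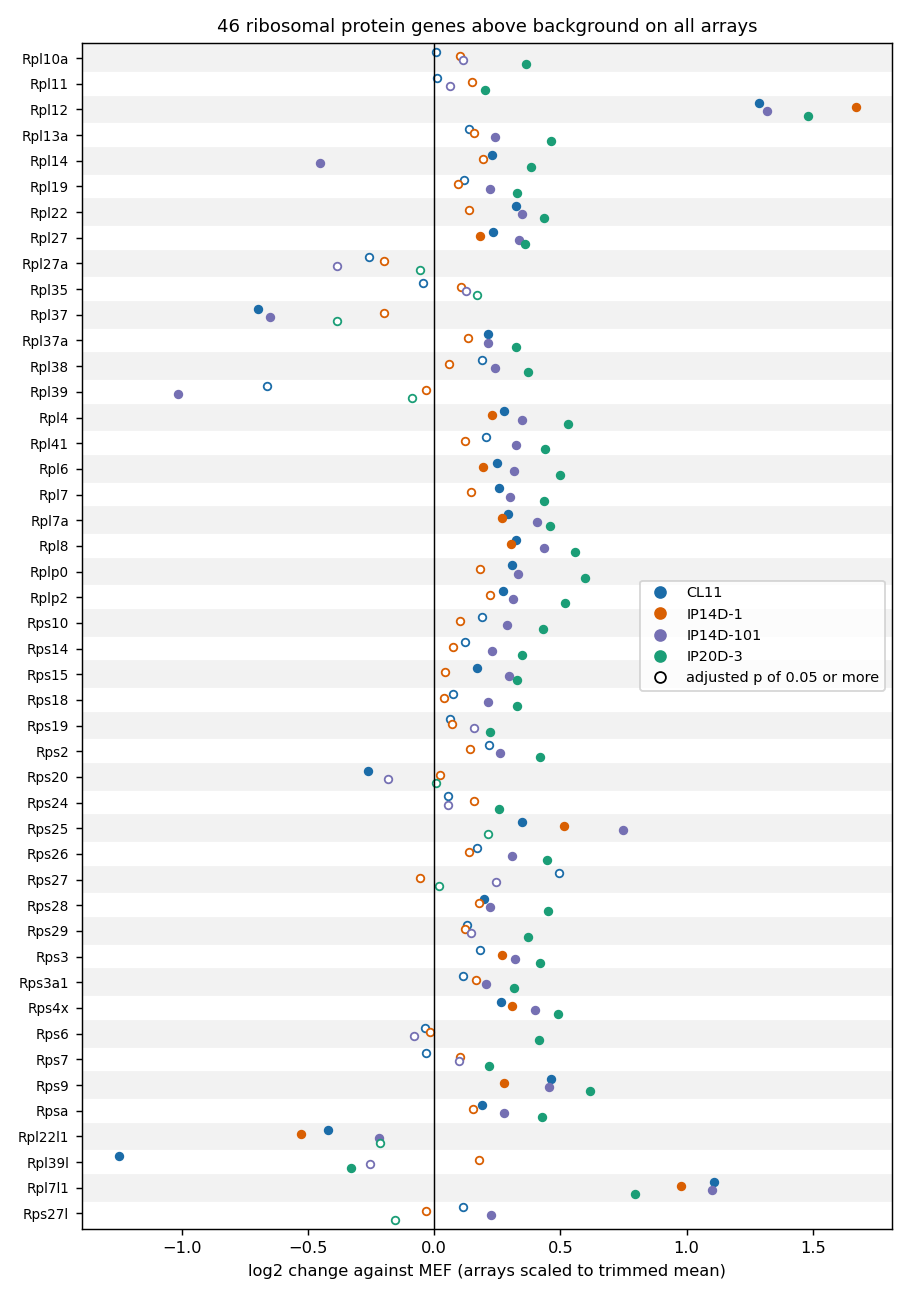
Rows are the 46 ribosomal protein genes above background on all 15 arrays, grouped as large subunit, stalk, small subunit and paralogs. The horizontal axis is the log2 change against MEF after scaling to the trimmed mean, colours are the lines, and filled points have an adjusted p under 0.05. Most genes lie slightly right of 0, a side that turns for CL11, IP14D-101 and IP20D-3 as deposited, while Rpl12 and Rpl7l1 stand far to the right and Rpl39l and Rpl39 to the left in some lines.

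Rpl12 encodes a large subunit protein at the base of the stalk. By the brightest probe set of each gene, Rpl12 showed the largest rise against MEF among the genes above background. Its scaled log2 signal was 14.31, 14.48 and 14.19 in MEF. It was 15.44, 15.71 and 15.70 in CL11, and 16.04, 15.90 and 16.05 in IP14D-1. IP14D-101 gave 15.91, 15.73 and 15.29, and IP20D-3 gave 15.75, 15.74 and 15.95. Every array of the lines lay above every MEF array. The rise was 2.44-fold in CL11 (log2 1.29 ± 0.13, SE, adjusted p = 5.61e-08), 3.18-fold in IP14D-1 (adjusted p = 1.55e-09), 2.49-fold in IP14D-101 (adjusted p = 3.89e-08) and 2.79-fold in IP20D-3 (adjusted p = 7.73e-09). Between lines, Rpl12 was higher in IP14D-1 than in CL11 by 0.38 ± 0.13 (SE, adjusted p = 0.0372), a call lost under median scaling and on leaving out any array but CL11 replicate 2. Rpl12 had a single probe set, with a mean log2 signal of 15.48, dimmer than those of the bright genes. Of 11 dim probe sets of bright genes, given below, 7 were higher and 1 lower than MEF in CL11, beside 30.3% and 24% of all genes. An Rpl41 probe set among them rose there by 1.32, and an Rps3 one by 1.76 in IP20D-3.

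Rps25, a small subunit protein used by viral internal ribosome entry, had 14.99, 14.98 and 14.62 in MEF. It read 15.62, 15.63 and 15.57 in IP14D-101, the highest group after scaling, and 15.36, 15.28 and 15.49 in IP14D-1. CL11 gave 15.10, 15.32 and 15.22, and IP20D-3 gave 15.07, 14.96 and 15.20, which overlapped MEF. The change against MEF was 0.75 ± 0.10 in IP14D-101 (SE, adjusted p = 3.47e-06), 0.51 ± 0.10 in IP14D-1 (adjusted p = 2.59e-04) and 0.35 ± 0.10 in CL11 (adjusted p = 0.00684). The call in IP14D-1 held under each scaling, while that in IP14D-101 was not kept under all 5. As deposited the change was -0.07 in CL11 and -0.42 in IP20D-3. The CL11 call was lost without MEF replicate 3, at 0.23 (adjusted p = 0.0553). IP20D-3 lay below IP14D-101 by 0.54 ± 0.10 (SE, adjusted p = 7.86e-04), a call kept under each scaling.

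Rpl14, a large subunit protein, read 14.94, 14.82 and 15.02 in IP14D-101, below all other arrays. MEF gave 15.33, 15.23 and 15.58, CL11 15.60, 15.64 and 15.58, IP14D-1 15.47, 15.61 and 15.63, and IP20D-3 15.77, 15.75 and 15.76. IP14D-101 was lower than CL11 by 0.68 on the log2 scale (a change of -0.68 ± 0.09, SE, adjusted p = 4.39e-05), lower than IP14D-1 (-0.65, adjusted p = 2.37e-05) and lower than MEF (-0.45, adjusted p = 1.93e-04). Each of these calls held under all 5 scalings. Rpl14 was higher than MEF in IP20D-3 by 0.38 (adjusted p = 9.44e-04) and in CL11 by 0.23 (adjusted p = 0.0333), but as deposited the changes were -0.25 and -0.19. The CL11 call was lost on leaving out any of the 6 arrays but MEF replicate 3, whose removal gave 0.33 (adjusted p = 0.00298).

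Rps6, the small subunit protein phosphorylated by S6 kinase, was set apart in IP20D-3 alone after scaling. It read 15.45, 15.45 and 15.38 there and from 14.81 to 15.18 on the other 12 arrays. The change in IP20D-3 was 0.41 against MEF (adjusted p = 7.98e-04), 0.45 against CL11 (adjusted p = 0.00159), 0.43 against IP14D-1 (adjusted p = 0.00653) and 0.50 against IP14D-101 (adjusted p = 6.72e-04). As deposited it was -0.22 against MEF and -0.12 against IP14D-1.

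Rpl37, a large subunit protein, read 17.33, 17.26 and 17.88 in MEF and 17.18, 16.61 and 16.58 in CL11. It was lower than MEF by -0.70 ± 0.17 in CL11 (SE, adjusted p = 0.00191) and by -0.65 ± 0.17 in IP14D-101 (SE, adjusted p = 0.00323), and both calls held under each scaling. Rps20, of the small subunit, was lower than MEF in CL11, with 20.02, 19.75 and 19.62 against 20.09, 20.02 and 20.06 (-0.26 ± 0.10, SE, adjusted p = 0.0311), and the call was lost without CL11 replicate 2 or 3 or MEF replicate 1 or 3. Rpl39, a small protein at the wall of the exit tunnel, read 14.10, 13.94 and 13.97 in MEF and 12.84, 13.91 and 12.22 in IP14D-101. The IP14D-101 change was -1.01 ± 0.28 (SE, adjusted p = 0.00401) with replicate 2 close to the MEF arrays, and CL11 was at -0.66 (adjusted p = 0.0507).

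**Figure D3:**
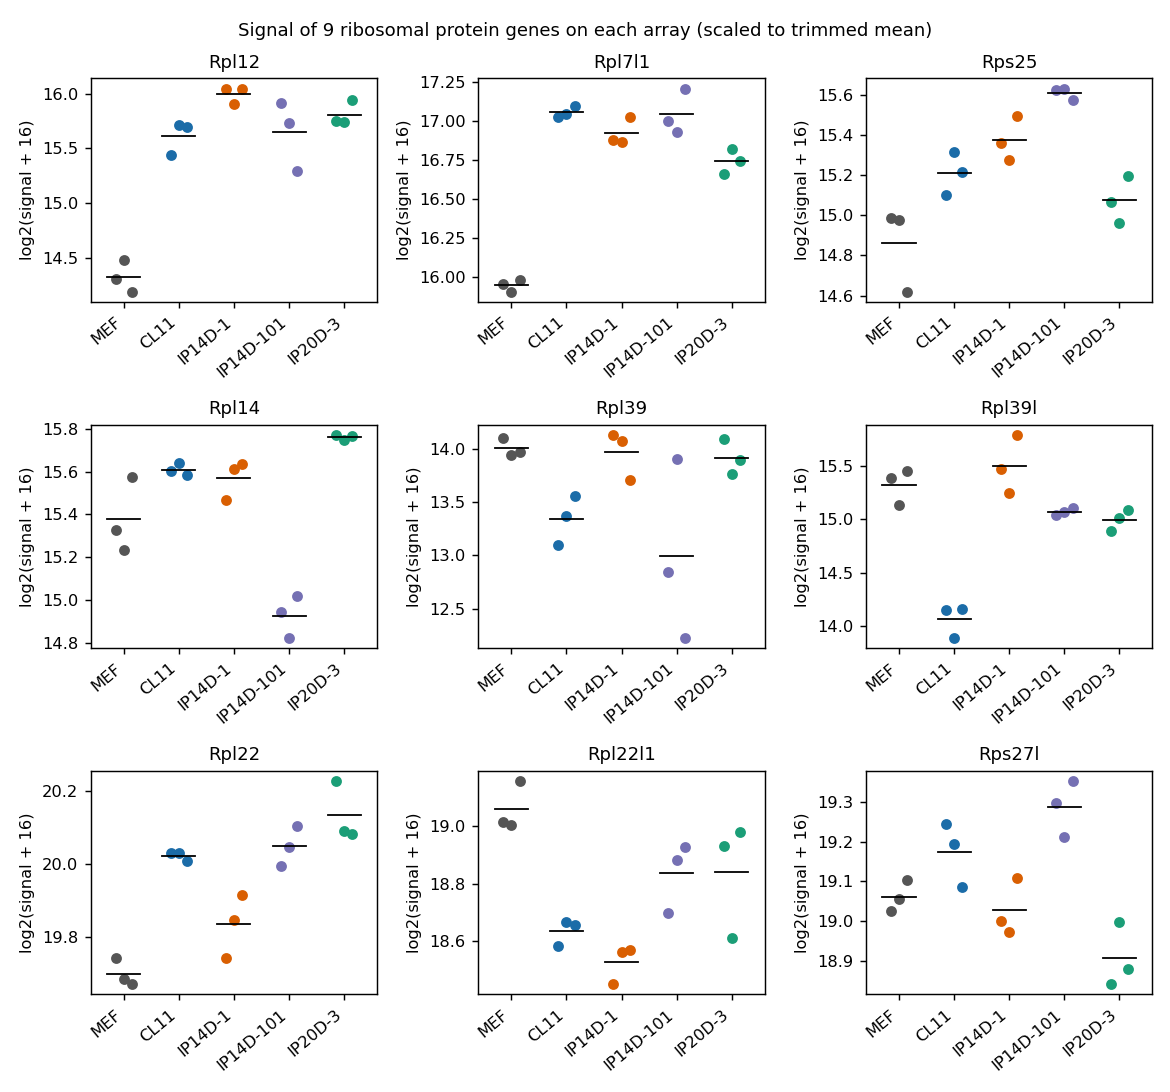
Points give log2(signal + 16), scaled to the trimmed mean, on each array, and bars the group means (n = 3). All 12 arrays of the lines lie above MEF for Rpl12 and Rpl7l1, IP14D-101 lies lowest for Rpl14, and CL11 lies lowest for Rpl39l.

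The 5 paralogs differed from each other. Rpl7l1, which belongs to ribosome assembly in the nucleolus, read 15.95, 15.90 and 15.98 in MEF. CL11 gave 17.02, 17.04 and 17.10, IP14D-1 16.88, 16.87 and 17.02, IP14D-101 17.00, 16.93 and 17.21, and IP20D-3 16.66, 16.82 and 16.74. No line array reached the MEF range. The change was 1.11 ± 0.08 in CL11 (SE, adjusted p = 2.71e-10), 0.98 in IP14D-1 (adjusted p = 1.81e-09), 1.10 in IP14D-101 (adjusted p = 2.97e-10) and 0.80 in IP20D-3 (adjusted p = 3.03e-08). IP20D-3 lay below CL11 by -0.31 (adjusted p = 0.00565) and below IP14D-101 by -0.30 (adjusted p = 0.00642), and both of these calls held under each scaling.

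Rpl39l set CL11 apart from the other pluripotent lines. CL11 read 14.16, 13.89 and 14.17, below all other arrays. MEF gave 15.39, 15.14 and 15.45, IP14D-1 15.47, 15.25 and 15.79, IP14D-101 15.04, 15.07 and 15.10, and IP20D-3 14.89, 15.01 and 15.08. CL11 was lower than MEF by -1.25 ± 0.12 (SE, adjusted p = 4.30e-08). Against CL11 the iPS lines were higher by 1.43 ± 0.12 in IP14D-1 (SE, adjusted p = 1.74e-07), 1.00 in IP14D-101 (adjusted p = 2.78e-05) and 0.92 in IP20D-3 (adjusted p = 2.26e-05). These 4 calls held under each of the 5 scalings. IP20D-3 was below IP14D-1 by -0.51 (adjusted p = 0.0136), a call lost without IP14D-1 replicate 3 or IP20D-3 replicate 1.

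Rpl22l1 fell and its parent Rpl22 rose against MEF in CL11 and IP14D-101 after scaling, while the rise of Rpl22 turned negative as deposited. Rpl22 is a large subunit protein that also binds messenger RNA, and it is known to hold down Rpl22l1. Rpl22l1 read 19.01, 19.00 and 19.15 in MEF, 18.58, 18.67 and 18.66 in CL11, and 18.45, 18.56 and 18.57 in IP14D-1. It fell by 0.42 ± 0.09 in CL11 (SE, adjusted p = 5.92e-04) and by 0.53 ± 0.09 in IP14D-1 (SE, adjusted p = 5.90e-05), and both calls held under each scaling. In IP14D-101 the change was -0.22 (adjusted p = 0.0476), a call lost on leaving out any array but IP14D-101 replicate 3, and in IP20D-3 -0.22 (adjusted p = 0.0527). Rpl22 read 19.74, 19.68 and 19.67 in MEF and 20.03, 20.03 and 20.01 in CL11, a change of 0.32 ± 0.07 (SE, adjusted p = 7.15e-04). It was at 0.14 in IP14D-1 (adjusted p = 0.127), 0.35 in IP14D-101 (adjusted p = 3.45e-04) and 0.43 in IP20D-3 (adjusted p = 3.47e-05), but as deposited it was at -0.20 in IP20D-3, -0.22 in IP14D-101 and -0.09 in CL11. The other Rpl22 probe sets were called higher in IP14D-1 after scaling, at 0.30 (adjusted p = 0.00114) and 0.82 (adjusted p = 1.01e-06).

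The difference between paralog and parent within an array does not depend on its scale factor. For Rpl22l1 minus Rpl22 it ran from -0.73 to -0.52 on the MEF arrays and from -1.48 to -1.10 on the 12 others, which did not overlap. The group means were -0.64 ± 0.11 in MEF, -1.29 ± 0.19 in IP20D-3, -1.21 ± 0.07 in IP14D-101, -1.31 ± 0.03 in IP14D-1 and -1.39 ± 0.05 in CL11 (SD, n = 3 each). For Rpl7l1 minus Rpl7 the mean was -3.62 ± 0.14 in MEF, -3.26 ± 0.14 in IP20D-3 and between -2.82 and -2.77 in the other lines (SD, n = 3 each). For Rpl39l minus Rpl39 the CL11 mean was lowest, at 0.73 ± 0.29, and IP14D-101 ranged from 1.16 to 2.88. These values show unequal change of the pair and not which of its members changed.

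Rps27l, a paralog of Rps27 that p53 induces, had its lowest mean in IP20D-3, with 18.84, 19.00 and 18.88. IP14D-101 read 19.30, 19.21 and 19.35, CL11 19.25, 19.19 and 19.08, MEF 19.03, 19.05 and 19.10, and IP14D-1 19.00, 18.97 and 19.11. IP20D-3 was below IP14D-101 by -0.38 ± 0.07 (SE, adjusted p = 6.86e-04) and below CL11 by -0.27 ± 0.07 (SE, adjusted p = 0.0107), and both calls held under each scaling. The call against CL11 was lost without CL11 replicate 1 or IP20D-3 replicate 1. By its brightest probe set Rps27l was called against MEF in IP14D-101 alone, at 0.23 (adjusted p = 0.0114), and as deposited that change was -0.34. After scaling, another Rps27l probe set was lower in IP20D-3 (-0.38, adjusted p = 1.78e-04) and in IP14D-1 (-0.18, adjusted p = 0.0469). A further one was higher in CL11 (0.22, adjusted p = 0.0144). Rpl3l, the muscle paralog, was above background on 2 of the 15 arrays, and Rps16 of the small subunit on none, so no fold is given for either.

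Against CL11, 4 genes were higher in IP14D-1 and 0 lower, beside 11.8% and 12.5% of all genes. These were Rpl39l, Rpl37 (0.50, adjusted p = 0.0434), Rpl12 and Rps20 (0.29, adjusted p = 0.0422), and without CL11 replicate 3, IP14D-1 replicate 1 or IP14D-1 replicate 2 the count was 1, and without CL11 replicate 2 it was 2. As deposited 21 were higher and 0 lower, beside 21.6% and 2.91% of all genes, and under quantile normalization 6 and 2, beside 10.9% and 14%. IP14D-101 had 2 higher, Rpl39l and Rps25 (0.40, adjusted p = 0.0153), and 1 lower, Rpl14, beside 6.07% and 5.55%. As deposited 1 was higher and 1 lower, beside 1.41% and 5.9%. Arrays scaled to the bright genes gave the same counts, beside 2.96% and 6.07%. The Rps25 call was lost without CL11 replicate 1. IP20D-3 had 14 higher and 2 lower, beside 10.6% and 11.4%. The largest rises in IP20D-3 beside Rpl39l were Rps6, Rpl10a (0.36) and Rpl13a (0.32). The count of 16 was 5 without IP20D-3 replicate 1, 7 without CL11 replicate 3 and 9 without IP20D-3 replicate 2, and as deposited 1 was higher and 3 lower, beside 3.86% and 16.7%. Quantile normalization called 2 higher and 2 lower, beside 9.88% and 12.2%, and median scaling 3 and 2, beside 9.26% and 10.8%. Scaling to the bright genes gave 1 and 3, beside 4.84% and 19.3%.

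Among the iPS lines, IP14D-101 had 4 genes higher and 4 lower than IP14D-1, beside 14.9% and 13.2% of all genes. Rpl14 and Rpl39 (-0.98, adjusted p = 0.0116) were lower under each scaling, although the Rpl39 call was lost without IP14D-101 replicate 3. As deposited, 37 genes were lower and 0 higher in that comparison, beside 32.1% and 1.93% of all genes. Higher and lower genes numbered 2 and 8 under quantile normalization, beside 17.1% and 11.7%, and 7 and 2 under median scaling, beside 18.6% and 9.99%. They numbered 0 and 7 with arrays scaled to the bright genes, beside 9.47% and 15%. Leaving out IP14D-101 replicate 3 gave 4 calls, and leaving out IP14D-1 replicate 1 or 2 or IP14D-101 replicate 2 gave 5. IP20D-3 had 19 higher and 1 lower than IP14D-1, beside 4.85% and 4.42% (9.27% in either direction), with Rps6 and Rplp0 (0.41, adjusted p = 0.00340) the largest rises. As deposited 0 were higher and 22 lower, beside 0.374% and 38.5%. Under quantile normalization 1 was higher and 2 lower, beside 5.02% and 4.73%, and scaling to the bright genes gave 0 and 4, beside 1.19% and 12.3%. The count of 20 was 3 without IP20D-3 replicate 1, 4 without IP14D-1 replicate 1, 8 without IP14D-1 replicate 2 and 10 without IP20D-3 replicate 2. IP20D-3 had 7 higher and 3 lower than IP14D-101, beside 11.1% and 12.5%, led by Rpl39 (0.92, adjusted p = 0.0199), whose call was lost without IP14D-101 replicate 1 or 3 or IP20D-3 replicate 1, and Rpl14 (0.83 ± 0.09, SE, adjusted p = 1.98e-06). Without IP20D-3 replicate 1 that comparison gave 2 higher and 3 lower. The values as deposited gave the same counts, beside 6.48% and 11% of all genes, as did those scaled to the bright genes, beside 7.01% and 16.3%. Quantile normalization gave 3 and 3, beside 9.78% and 14%, and median scaling 3 and 3, beside 9.16% and 13.3%.

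Relative to the mean of the bright genes on each array, a bright gene's group means ranged by a median of 0.14 over the 5 groups on the log2 scale, from 0.03 for Rpl19 to 0.66 for Rpl22l1. The next widest were Rps27l at 0.51 and Rps20 at 0.42. The 10 other genes above background on all arrays ranged by a median of 0.83, from 0.37 for Rps6 to 1.54 for Rpl12. The spread between arrays was wide for some of them, with an SD of 0.87 for Rpl39 in IP14D-101 and 0.76 for Rps27 in CL11. Such spread widens a range, and its part in these ranges was not tested. A narrow range near the top of the signal scale does not show that the RNA kept in step. These values do not depend on the arrays' scale factors.

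Several genes had more than 1 probe set, 104 in all for the 48 genes, and dimmer ones could be set against the brightest for a few genes. Of the bright genes, 9 had 11 further probe sets with a mean log2 signal under 18 that were above background on every array. In CL11, 7 of the 11 were higher than MEF and 1 lower, beside 30.3% and 24% of all genes. The share over all probe sets was not taken. The median of the 11 was 0.62, beside 0.19 over the brightest probe sets of the same 9 genes. The corresponding medians were 0.64 beside 0.13 in IP14D-1, 0.75 beside 0.29 in IP14D-101 and 0.61 beside 0.42 in IP20D-3. As deposited they were 0.20 beside -0.23 in CL11, 0.55 beside 0.04 in IP14D-1, 0.18 beside -0.28 in IP14D-101 and -0.03 beside -0.22 in IP20D-3. The change was larger in size than in the brightest probe set of the same gene for 10, 11, 9 and 9 of the 11 after scaling. As deposited it was larger for 7, 9, 8 and 7. The dimmer probe sets also had wider errors, which by themselves widen such changes. In CL11 an Rps18 one at 0.38 was not called (SE 0.30, adjusted p = 0.349), beside an SE of 0.06 for the brightest Rps18 probe set. In IP20D-3 as deposited the median of the dimmer probe sets lay nearer to 0 than that of the brightest. Rpl41, the shortest ribosomal protein, had a pair of dim probe sets that rose by 1.32 and 1.12 in CL11 (adjusted p = 1.27e-08 and 5.77e-06), where its brightest one was at 0.20.

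A dim probe set of Rps3, a small subunit protein that also acts in DNA repair, averaged 14.15 ± 0.20 in MEF, 15.91 ± 0.14 in IP20D-3, 15.82 ± 0.13 in IP14D-101, 14.97 ± 0.11 in IP14D-1 and 14.42 ± 0.19 in CL11 (SD, n = 3 each). Its change of 1.76 in IP20D-3 stood beside 0.42 in the brightest Rps3 probe set. Rps9 was the only gene with probe sets called in opposite directions, in CL11 and in IP14D-101. In CL11 its brightest probe set rose by 0.46, another fell by 0.41, and the dimmest rose by 1.10. Of the 48 genes, 24 had a single probe set and could not be compared in this way.

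**Figure D4:**
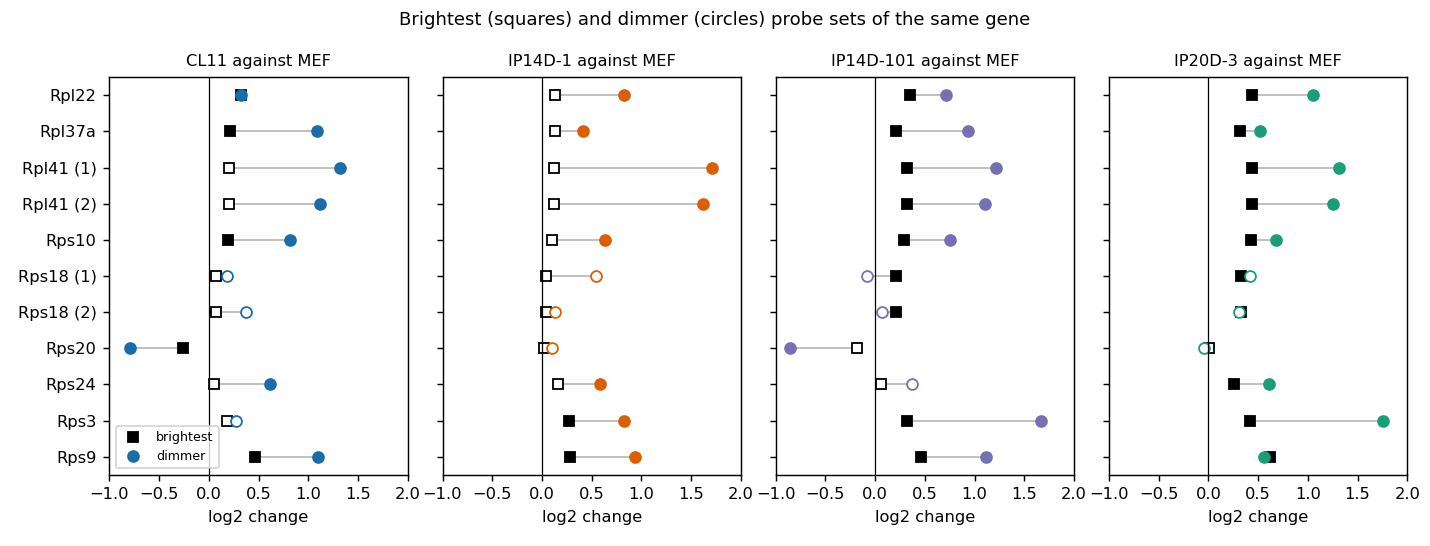
Rows are 11 dimmer probe sets of 9 ribosomal protein genes, with 2 rows for Rpl41 and for Rps18. Circles give the log2 change against MEF of the dimmer probe set and squares that of the brightest one, after scaling to the trimmed mean, and filled symbols have an adjusted p under 0.05. Rpl41, Rps3 and Rps9 show the dim probe set far to the right in several lines, while the squares lie between -0.26 and 0.62 and turn negative in CL11, IP14D-101 and IP20D-3 on the median as deposited.

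Genes that build the ribosome were set beside its proteins, with no test of the difference between lists. About 30% of all genes were higher and 24% lower than MEF after scaling, as given above. Of 75 ribosome biogenesis genes, 75 were higher than MEF in CL11 and IP20D-3 and 74 in IP14D-1 and IP14D-101, with 0 lower and medians of 1.46, 1.39, 1.35 and 1.49. As deposited, 66, 61, 72 and 63 were higher and 0, 2, 0 and 1 lower. Dkc1, the pseudouridine synthase of box H/ACA particles, rose by 2.78 in CL11 (adjusted p = 1.07e-14), and Rrp1b, a nucleolar protein, by 2.56 (adjusted p = 3.33e-15). Heatr1, of the small subunit processome, rose by 2.38 in IP20D-3 (adjusted p = 9.48e-16). Of 14 genes of RNA polymerase I and its factors, 12 were higher in IP20D-3, 13 in each other line and 0 lower, with medians from 1.28 to 1.34. Polr1b, its second largest subunit, rose by 2.29 in CL11 (adjusted p = 1.50e-12). As deposited, 12 of the 14 were higher in IP14D-1 and 9 in each other line, with 1 lower in IP20D-3.

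The mitochondrial ribosomal proteins, which serve the separate ribosome of mitochondria, were the closest set by kind. Of 76, 62 were higher than MEF and 5 lower in CL11, 52 and 7 in IP14D-1, 63 and 3 in IP14D-101, and 51 and 8 in IP20D-3. Medians were 0.88, 0.62, 0.97 and 0.62, against 0.19, 0.14, 0.24 and 0.37 for the cytosolic genes. As deposited, the mitochondrial median in IP20D-3 was -0.01, with 22 higher and 28 lower. Mrpl45 rose by 1.82 in CL11 (adjusted p = 1.31e-13) and by 2.08 in IP20D-3 (adjusted p = 1.74e-14). In IP20D-3, 38 of the 76 were lower than in CL11 and 1 higher, and 49 were lower than in IP14D-101 and 0 higher, whereas the cytosolic genes had 14 higher and 2 lower and 7 higher and 3 lower after scaling. As deposited, 48 and 42 mitochondrial genes were lower and 0 higher in these 2 comparisons, and 1 and 2 cytosolic genes were higher and 3 and 3 lower.

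Of 30 initiation factor genes, 20 were higher and 4 lower in CL11, 21 and 1 in IP14D-1, 21 and 2 in IP14D-101, and 23 and 1 in IP20D-3, with medians from 0.37 to 0.50. As deposited these splits were 11 and 8, 15 and 1, 10 and 12, and 8 and 13. Eif2b5, of the exchange factor that recharges eIF2, rose by 1.46 in CL11 (adjusted p = 8.85e-12). Of 8 elongation factor genes, 3, 2, 4 and 6 were higher and 1 lower in the lines in the same order, with medians of 0.15, 0.14, 0.22 and 0.42. These medians lay close to those of the ribosomal proteins. As deposited 0, 2, 1 and 0 were higher and 3, 1, 6 and 3 lower. The 1 lower in each was Eif5a2, at -1.54 in CL11 (adjusted p = 3.72e-06). Of 7 other TOP messages, 4, 3, 5 and 6 were higher and 1 lower, Vim, the fibroblast intermediate filament, at -3.24 in CL11 (adjusted p = 4.99e-16). As deposited 1, 2, 0 and 1 of the 7 were higher and 1, 1, 3 and 3 lower.

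Of 12 genes that regulate ribosomal protein genes or messages, 10 were higher in CL11, 9 in IP14D-101 and 8 in each other line, with 1 lower, in IP20D-3. As deposited 5 were higher in CL11, 6 in IP14D-1 and 4 in each other line, and 4 were lower in IP14D-101 and 4 in IP20D-3. Larp1, the cap-binding protein of TOP messages, was higher by 0.80 in CL11 (adjusted p = 1.10e-07) and by 1.20 in IP20D-3 (adjusted p = 3.74e-10). Mycn averaged 10.73 in MEF, below background, and from 17.64 to 18.20 in the lines. Myc, which drives many ribosomal genes, was at 0.05 in CL11 (adjusted p = 0.832), -0.13 in IP14D-1 (adjusted p = 0.591) and 0.07 in IP14D-101 (adjusted p = 0.777), and it was lower in IP20D-3 at -0.92 ± 0.18 (SE, adjusted p = 1.69e-04).

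**Figure D5:**
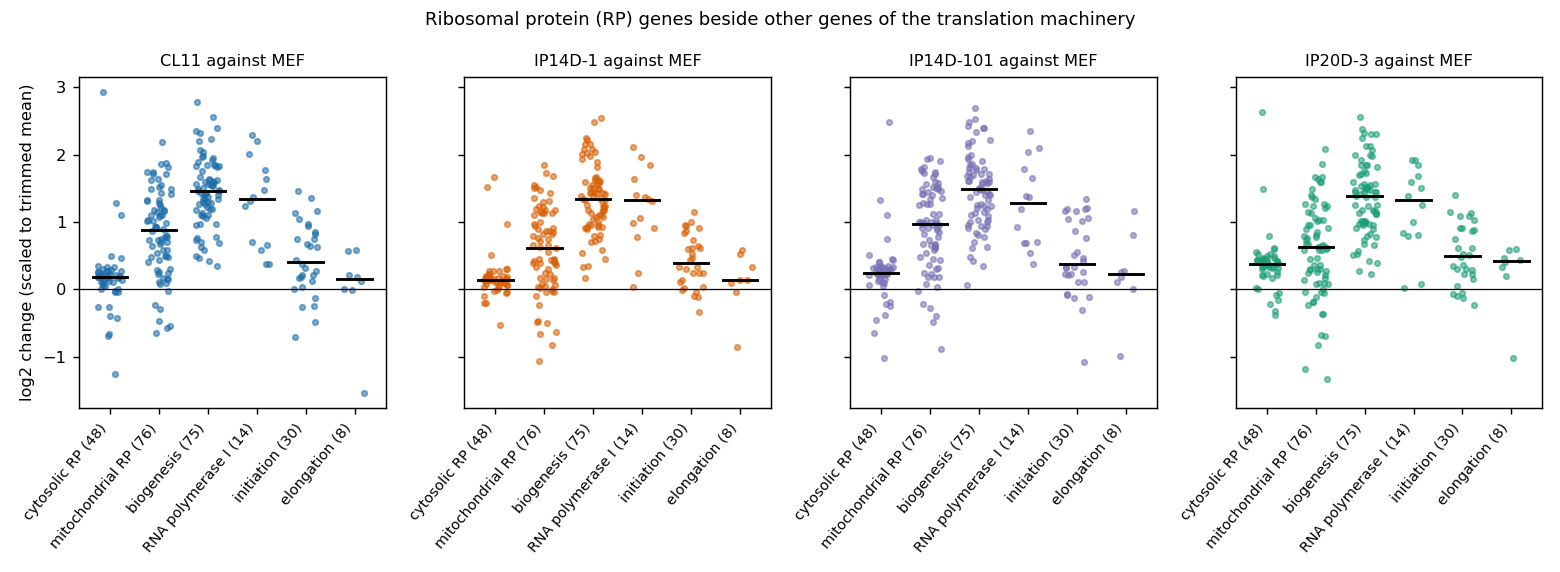
Points are genes and bars are medians of each list, with the log2 change against MEF after scaling to the trimmed mean on the vertical axis and the number of genes in brackets. Ribosome biogenesis and RNA polymerase I genes lie near 1.3 to 1.5 on the median and stay above 0 as deposited, whereas the cytosolic ribosomal proteins lie between 0.14 and 0.37 and fall below 0 in CL11, IP14D-101 and IP20D-3 as deposited. The cytosolic point highest in CL11, IP14D-101 and IP20D-3 is Rpl3l, which was below background on most arrays.

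The pseudogene Rps4l, left out by the rule, changed more than any of the 48 genes above background. Its log2 signal averaged 15.28 ± 0.32 in MEF, 18.79 ± 0.04 in IP20D-3, 18.98 ± 0.18 in IP14D-101, 18.66 ± 0.15 in IP14D-1 and 19.00 ± 0.09 in CL11 (SD, n = 3 each). RefSeq types it as a transcribed pseudogene, and by its name it is a relative of Rps4x. Its rise was 3.51, 3.70, 3.38 and 3.71 in the lines in that order, while Rps4x, the X-linked small subunit gene, was at 0.49, 0.40, 0.31 and 0.27, and at -0.15, -0.17 and -0.15 in CL11, IP14D-101 and IP20D-3 as deposited. Signal of near-identical copies can be shared between such probe sets, so the split between Rps4x and Rps4l is uncertain.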

How the data were processed

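The data used were the deposited intensity values, MAS5 signals. The submitters' processing notes name Expression Console by Affymetrix as the tool the authors used, without a version, and the unit is a linear intensity. No raw scans were read. Signals near the top of the range may understate changes, which was not tested. Arrays held 45101 probe sets, 64 of them controls. Their 2% trimmed means differed by a ratio of 1.83, above the tolerance of 5%, so each array was scaled to the mean of these, and log2(signal + 16) was taken. Probe sets that named several genes (932) or none (9160) were left out, and the brightest probe set stood for each of 18193 genes. Scaling moves every value of an array together, which is why splits as deposited stand beside the counts.

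A model with a mean for each of 5 groups was fitted to all 15 arrays with limma 3.58.1 in R 4.3.3 (eBayes with a trend), 10 contrasts were taken, with Benjamini-Hochberg adjustment of each over all genes. The method was tested on simulated data with independent noise, without differences in array scale and without saturation. That test therefore says nothing of the scaling or of saturated probe sets. The 5 scalings compared were trimmed mean, none, median, quantile and the mean of the bright genes. The last was chosen after seeing the data, as was the limit of 18 for bright genes.

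Members and lists were chosen with earlier results of these data known. Named genes are the 5 largest called rises and falls of each comparison, the brightest and dimmest members, paralogs with parents, Rplp0, Rplp2, Rpsa, Rps19, Rpl11, Rpl38, Rpl10a and Rps25, members with probe sets called both ways, and up to 4 called genes of each other list. The dimmer probe sets, the pseudogene, Rpl41, Rps3, Rpl35, Rpl13a, Rpl27, Rpl4, Rpl6, Rpl7a, Rpl8 and Rpl19 were named after their values were seen. The number of arrays limits the precision. Sequences and start sites are RefSeq's, on GRCm38.p6, matched by gene identifier.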

Additional observations from a re-analysis of the deposited data

Results flagged for a closer look

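Rpl14 differed between lines whose changes against MEF ran in opposite directions, lower in IP14D-101 (-0.45) and higher in CL11 (0.23) and IP20D-3 (0.38) after scaling. The difference itself was tested in the same model. It was -0.68 for IP14D-101 against CL11 (adjusted p = 4.39e-05) and 0.83 for IP20D-3 against IP14D-101 (adjusted p = 1.98e-06), with no overlap between the 3 arrays of either pair of groups. Rpl14 was read from a single probe set, and IP14D-101 is the line with the C57x129S2 background, so line and background cannot be told apart.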

How the results depend on the processing

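The choice that mattered most was the scaling of the arrays. As deposited, the genes called against MEF numbered 23 in IP20D-3, 32 in IP14D-101, 4 in IP14D-1 and 23 in CL11, and more were lower than higher in each line but IP14D-1. Between lines they numbered 21 for IP14D-1 against CL11, 4 for IP20D-3 against CL11, 37 for IP14D-101 against IP14D-1, 22 for IP20D-3 against IP14D-1 and 5 for IP20D-3 against IP14D-101. Quantile normalization gave 20 in IP14D-101 and 20 in IP20D-3 against MEF, 8 for IP14D-1 against CL11, 4 for IP20D-3 against CL11, 3 for IP20D-3 against IP14D-1 and 6 for IP20D-3 against IP14D-101. In the same 4 line pairs median scaling gave 1, 5, 9 and 6, and scaling to the bright genes, added after seeing the data, gave 2, 4, 4 and 5. Of all genes, median scaling called 9.48% higher and 14.7% lower for IP14D-1 against CL11, and 5.45% and 3.11% for IP20D-3 against IP14D-1. Scaling to the bright genes called 10.9% higher and 10.1% lower for IP14D-1 against CL11. Against MEF, median scaling gave 7 in IP14D-1, and scaling to the bright genes gave 15 in IP20D-3, 18 in IP14D-101, 7 in IP14D-1 and 14 in CL11. In IP14D-1, median scaling called 29.6% of all genes higher and 22.9% lower than MEF, and scaling to the bright genes 26.6% and 24.9%. The mean of all probe sets of a gene gave 21 in IP14D-1 against MEF, and a background filter gave 27 for IP20D-3 against CL11. Without the variance trend these 4 pairs gave 1, 9, 5 and 6, and IP14D-101 against IP14D-1 gave 5. With only the 6 arrays compared, IP14D-101 against IP14D-1 gave 5 and IP20D-3 against IP14D-101 gave 5. Shares of all genes called were not taken for the mean of all probe sets, the background filter or the fit without the trend. Nor were they taken with only the 6 arrays compared, with 1 array left out or with the replicate number as a block. The filter also changed the genes over which p-values were adjusted. The cause of these shifts was not tested.

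Leaving out 1 array at a time gave 33 to 39 calls in IP20D-3 against MEF, 27 to 35 in IP14D-101, 9 to 15 in IP14D-1 and 13 to 25 in CL11. Between lines it gave 1 to 4 for IP14D-1 against CL11, 2 to 4 for IP14D-101 against CL11, 5 to 24 for IP20D-3 against CL11, 4 to 12 for IP14D-101 against IP14D-1, 3 to 19 for IP20D-3 against IP14D-1 and 5 to 12 for IP20D-3 against IP14D-101.

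Of 1653 alternative values for 87 named gene results, 1427 kept direction and call, 159 lost the call, 40 gained it and 27 turned. As deposited, CL11 against MEF turned for Rpl22 (-0.093), Rps27l (-0.30), Rpl14 (-0.19), Rps25 (-0.068), Rps4x (-0.15), Rplp0 (-0.11) and Rplp2 (-0.15). IP14D-101 against MEF turned for Rpl22 (-0.22), Rps27l (-0.34), Rps9 (-0.11), Rps4x (-0.17), Rplp0 (-0.24) and Rplp2 (-0.26). IP20D-3 against MEF turned for Rpl22 (-0.20), Rpl14 (-0.25), Rps25 (-0.42), Rps9 (-0.019), Rps4x (-0.15), Rplp0 (-0.042), Rplp2 (-0.12) and Rps6 (-0.22). Rpl22l1 (-0.17) and Rps27l (-0.22) turned for IP14D-101 against IP14D-1, and Rps6 (-0.12) and Rplp0 (-0.13) for IP20D-3 against IP14D-1. Rps4x turned in IP14D-1 against MEF with the mean of all probe sets (-0.0055), and Rps27l in IP14D-101 against MEF with scaling to the bright genes (-0.0075).

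The labels share replicate numbers, but same-numbered arrays did not deviate together, with correlations from -0.031 to 0.030 over 30 pairs and 0 above 0.1. A fit with the replicate number as a block kept every count of calls within 1.5 times (23 in CL11 and 39 in IP20D-3 against MEF), and of the named gene results 1 lost its call and 3 gained it.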
